A study of Mus musculus with 9 samples.

Results

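The 7 genes described here encode CC chemokines. Ccl2, Ccl7 and Ccl12 are among the monocyte chemoattractant proteins of the mouse. Ccl6 and Ccl9 are a rodent pair, and Ccl3 and Ccl4 are the macrophage inflammatory proteins 1 alpha and 1 beta. The 7 were selected on measured values of these same libraries, their FPKM after resection and after sham surgery, with the vagotomy values also known. Each was read by its symbol and gene identifier from the deposited expression matrix. All 7 were present among its 14479 genes, and all 7 passed the filter on low values that left 13249 genes to test. Of 24 mouse CC ligands searched for, 12 were in the matrix, so the 7 are the larger part of the family detected in this tissue. The other CC ligands, the receptors, the intracellular pathway and the marker lists used below were likewise written with earlier results of these data known.

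The samples were hearts of newborn CD-1 mice, an outbred strain, operated on at postnatal day 1 and collected at postnatal day 2. Some had sham surgery, some had ventricular apical resection, in which the tip of the ventricle is cut off, and the rest had the same resection together with left vagotomy, the cutting of the left vagus nerve. No group had vagotomy without resection, so "with vagotomy" and "vagotomy libraries" below mean resection with left vagotomy. Each group had 3 libraries of total RNA from the apical end of the ventricle. The labels record neither pooling nor whether the libraries came from separate pups or litters, so a p-value measures only the spread between these libraries, which may be technical. Values are FPKM, fragments scaled to transcript length and library size. No read counts were used, so the depth behind each value is unknown. The median gene was at 7.52 to 8.29 FPKM in the 9 libraries. The FPKM summed over all genes were less even, from 960900 to 1488000 in sham, 2516000, 2007000 and 769600 in resection replicates 1, 2 and 3, and 615600 to 781500 with vagotomy. Cardiomyocyte markers were abundant as labelled, although Actc1 and Myh6 were listed at 0 in the 3 vagotomy libraries, where the authors' table marks them as failed estimates.

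CC chemokines are small secreted proteins named for a pair of adjacent cysteines near their amino terminus. They bind to sulphated sugars on cells and matrix and draw in leukocytes that carry the matching G protein-coupled receptors. Ccl2, Ccl7 and Ccl12 act through Ccr2, the receptor of inflammatory monocytes, while Ccl3, Ccl6 and Ccl9 act through Ccr1. In injured heart, Ccl2 and Ccr2 are known for bringing monocytes from the blood into the wound.

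All 7 genes lie on chromosome 11 in 2 clusters (GRCm38, GENCODE M21). The first holds Ccl2 at chr11:82035571-82037453, Ccl7 at chr11:82045712-82047525 and Ccl12 at chr11:82101845-82103400, all on the plus strand. The second holds Ccl9 at chr11:83572919-83578636, Ccl6 at chr11:83587882-83593087 and Ccl3 at chr11:83647844-83649355 on the minus strand, and Ccl4 at chr11:83662584-83664683 on the plus strand. The CC ligand genes beside the members were at 1.44 FPKM or less as group values of the authors. The eosinophil chemokine Ccl11, which lies between Ccl7 and Ccl12, and Ccl8 and Ccl1 beyond Ccl12 were not in the matrix, and the authors' deposited table lists none of them above 0.242 FPKM in any group. Ccl5, beside Ccl9, was at 0, 0.326 and 1.44 FPKM after sham, resection and resection with vagotomy in the authors' deposited tables, and the last value rests mainly on vagotomy replicate 1, at 3.56 FPKM in the matrix against 0.786 and 0 in replicates 2 and 3.

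Promoter sequence was at hand for 4 of the 7, Ccl12 of the first cluster and Ccl9, Ccl6 and Ccl3 of the second (RefSeq, GRCm38.p6). It is shown because these genes did not all stand on the same side of resection after vagotomy. The mean of Ccl3 was higher and those of Ccl6, Ccl9 and Ccl12 were lower. None of these 4 differences passed the test described below, and the libraries of Ccl9 and Ccl12 overlapped those of resection. Each sequence is the 100 bases that end just before the start that RefSeq gives (for Ccl3 it lies upstream of the GENCODE start given above), on the gene's strand, at chr11:82101745-82101844 for Ccl12, chr11:83578637-83578736 for Ccl9, chr11:83593088-83593187 for Ccl6 and chr11:83649379-83649478 for Ccl3. Capitals mark matches to any of 5 motifs searched on both strands.
Ccl12: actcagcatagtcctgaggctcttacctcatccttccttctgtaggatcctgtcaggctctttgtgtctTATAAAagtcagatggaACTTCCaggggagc
Ccl9: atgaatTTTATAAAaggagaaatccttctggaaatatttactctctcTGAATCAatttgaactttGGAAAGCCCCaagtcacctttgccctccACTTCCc
Ccl6: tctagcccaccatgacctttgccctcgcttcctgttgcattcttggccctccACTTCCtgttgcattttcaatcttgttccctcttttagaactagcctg
Ccl3: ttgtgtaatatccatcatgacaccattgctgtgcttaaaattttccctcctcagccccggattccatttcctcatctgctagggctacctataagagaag

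The core bound by PU.1 and other ETS factors, GGAAGT, was found on the minus strand of the Ccl12, Ccl9 and Ccl6 windows, at positions -14 to -9, -7 to -2 and -48 to -43 from the start. This motif occurred in 10.03% of the 32851 promoter windows of the same length. The Ccl9 window alone also held the NF-kB consensus, at positions -35 to -26 on the minus strand (3.00% of windows). It alone also held TGAATCA at positions -53 to -47, a match to the AP-1 pattern searched, TGANTCA (2.73% of windows). That pattern allows any base at N. A TATA box, TATAAA, stood at positions -31 to -26 in Ccl12, and 2 overlapping copies on opposite strands stood farther out in Ccl9 (5.56% of windows). None of the 4 windows held the C/EBP motif TTGCNNAA (3.43% of windows), and the Ccl3 window held none of the 5. These matches describe letters in short windows, binding was not measured, and their part in the members' levels was not tested. Close copies can trade reads, and the longest identical runs between the members' annotated transcripts were 25 bases between Ccl6 and Ccl9, 23 between Ccl2 and Ccl7 and 17 between Ccl2 and Ccl12, with at most 12 in the other pairs. In the deposited tables the locus of Ccl2 is also that of the gene model Gm17268, and the locus of Ccl6 is also that of E230016K23Rik, so reads of these pairs may not have been told apart. The authors' deposited tables list Gm17268 at 0 in the 3 groups and E230016K23Rik at 0.119, 0.125 and 0.617 FPKM.

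The first comparison asked how CC chemokine transcripts stood in the apex on the day after its tip was removed. The means of Ccl2, Ccl3, Ccl4, Ccl6, Ccl7 and Ccl9 were 8.93- to 32.1-fold higher after resection than after sham surgery, and that of Ccl12 was 2.26-fold higher with overlapping libraries. Ccl2, Ccl6 and Ccl7 reached the highest levels and Ccl3 and Ccl4, almost undetected in sham, the largest ratios. Because the genes were chosen with these values known, the differences from sham are given as a description with no test. In bulk tissue, fewer cells of a type and less RNA per cell cannot be told apart. In sham hearts Ccl2 was at 8.56, 10.03 and 19.97 FPKM in replicates 1, 2 and 3, and after resection at 141, 126 and 222 FPKM. The mean was 12.9 ± 6.20 FPKM in sham and 163 ± 51.9 FPKM after resection (SD, n = 3 each), a 12.7-fold difference. The lowest resection library lay far above the highest sham library, and Ccl2 had the highest mean of the 7 genes in each of the 3 groups.

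Ccl7, a Ccr2 ligand encoded next to Ccl2, was at 3.19, 4.64 and 8.53 FPKM in sham and at 43.1, 41.0 and 90.8 FPKM after resection. Its means were 5.45 ± 2.76 and 58.3 ± 28.1 FPKM, 10.7-fold apart, with no overlap. Ccl12, the third Ccr2 ligand, stayed low, at 0.373, 2.14 and 0.731 FPKM in sham and 2.91, 1.008 and 3.43 FPKM after resection. Its sham replicate 2 lay above its resection replicate 2, and the means of 1.08 ± 0.935 and 2.45 ± 1.27 FPKM were closer together than those of any other member.

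In the rodent pair, Ccl6 was at 2.81, 2.21 and 16.0 FPKM in sham and at 57.0, 53.4 and 180 FPKM after resection. Ccl6 had the second highest mean of the 7 in each group, in sham through replicate 3 alone, since Ccl7 was above it in sham replicates 1 and 2. Its spread was wide, with means of 7.0 ± 7.79 and 96.8 ± 72.0 FPKM, 13.8-fold apart. Ccl9 was at 1.64, 0.550 and 2.78 FPKM in sham and 14.4, 7.77 and 22.1 FPKM after resection (means 1.66 ± 1.12 and 14.8 ± 7.19 FPKM). Both genes had every resection library above every sham library.

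The macrophage inflammatory proteins were the lowest members in sham. Ccl3 was at 0.133, 0.0585 and 0.114 FPKM in sham and 3.58, 2.53 and 3.71 FPKM after resection, a 32.1-fold difference of means. Ccl4 was at 0.266, 0.285 and 0.553 FPKM in sham and 6.25, 4.58 and 8.18 FPKM after resection, 17.2-fold apart. Every sham value of these 2 genes was below 1 FPKM, so they passed the filter on a mean of at least 1 FPKM only through the resected groups, and a ratio to a level this near 0 moves with small changes in sham. On the scale tested below, log2(FPKM + 1), Ccl3 and Ccl4 stood only 1.94 and 2.40 above sham, against 3.61 for Ccl2, 3.81 for Ccl6, 3.19 for Ccl7, 2.55 for Ccl9 and 0.74 for Ccl12, since adding 1 compresses the differences of low genes. The median of the 7 was 2.55, beside -0.0089 for all genes tested.

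In all, 6 of the 7 members (all but Ccl12) had every resection library above every sham library, as had 6.36% of all genes tested. This share belongs to the contrast on which the genes were chosen. Resection replicate 3 was the highest and resection replicate 2 the lowest of the resection libraries for 7 of 7 members. Sham replicate 3 was the highest sham library for 5 of 7, all except Ccl3 and Ccl12.

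**Figure D1:**
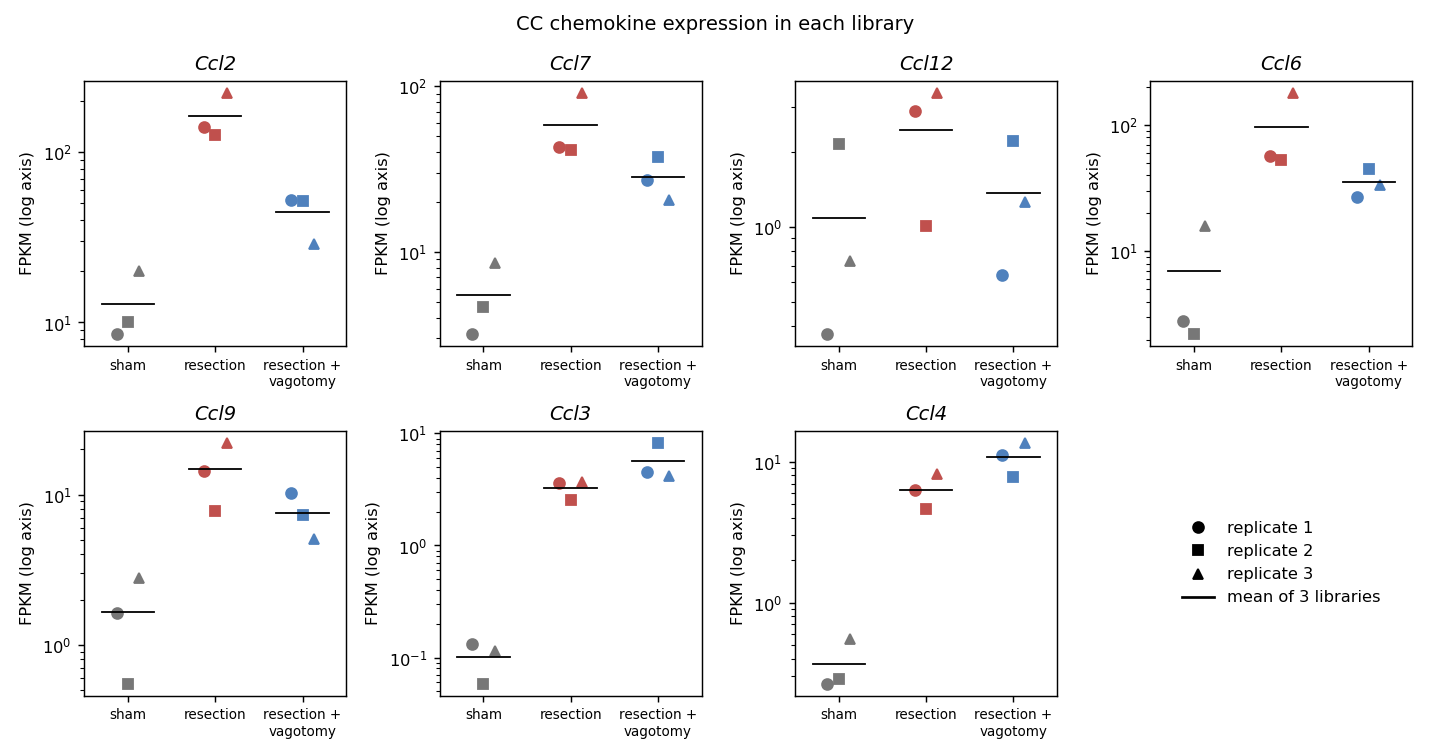
FPKM of each of the 7 CC chemokines in the 9 libraries, on a log axis of its own range per panel; symbols mark the replicate number and lines the mean of 3 libraries. Resection libraries lie above sham for 6 genes (all but Ccl12), and the libraries with added vagotomy lie below resection for Ccl2, Ccl7 and Ccl6 and above it for Ccl3.

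The second comparison asked whether cutting the left vagus nerve at the time of resection altered these transcripts. Ccl2 was lower, Ccl7, Ccl6, Ccl9 and Ccl12 had lower means that did not pass the test, and Ccl3 and Ccl4 had higher means that did not pass either. The test was limma's, on log2(FPKM + 1) with 3 libraries a group and the spread estimated over all 9, two-sided, with Benjamini-Hochberg adjustment over 13249 genes and a threshold of 0.05. The values of this contrast were known when the genes were named, so the test is no independent support for its direction, and it uses the same resection libraries as the comparison with sham.

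Ccl2 was at 52.2, 51.6 and 28.9 FPKM in the 3 libraries with resection and vagotomy, a mean of 44.2 ± 13.3 FPKM (SD, n = 3). All 3 lay below the lowest resection library and above the highest sham library. Ccl2 fell by 1.86 on the log2 scale against resection (SE 0.38, 95% interval -2.69 to -1.03, limma adjusted p = 0.0337), with a mean 3.68-fold lower. It was the 1 member of 7 past the threshold, where 1.55% of all genes tested were lower past the threshold and 3.52% passed in either direction. The authors' deposited table, made with Cuffdiff, gives Ccl2 a q-value of 0.000995. The call was close to the threshold: it held in 10 of 18 alternatives (adjusted p 0.0261 to 0.101) and was lost with only the 6 compared libraries in the fit (adjusted p = 0.101) and without sham replicate 2 (0.0627) or 3 (0.0530), resection replicate 2 (0.101) or 3 (0.0679), or vagotomy replicate 1 (0.0650), 2 (0.0606) or 3 (0.0917). The direction held in all 18, with log2 differences of -2.03 to -1.59.

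Ccl7 was at 27.1, 37.3 and 20.5 FPKM after resection with vagotomy (28.3 ± 8.46 FPKM), below its 3 resection libraries and above its 3 sham libraries. Its log2 difference from resection was -0.96 (95% interval -1.84 to -0.078, limma adjusted p = 0.174). Ccl12 was at 0.640, 2.20 and 1.26 FPKM and overlapped both other groups, with a log2 difference of -0.52 (95% interval -1.45 to 0.42, adjusted p = 0.486). Among the 3 Ccr2 ligands the mean was thus lower with vagotomy in each case, and past the threshold for Ccl2 only in the limma fit.

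Ccl6 was at 26.8, 45.3 and 33.5 FPKM, below its lowest resection library of 53.4 FPKM. Its log2 difference was -1.23, and the 95% interval of -2.63 to 0.17 was the widest of the 7 (limma adjusted p = 0.262). Ccl9 was at 10.2, 7.36 and 5.04 FPKM, of which replicate 1 lay above resection replicate 2. It differed by -0.82 (95% interval -1.76 to 0.12, adjusted p = 0.262). Without resection replicate 3 the log2 differences of Ccl6, Ccl7 and Ccl9 were -0.67, -0.59 and -0.49, the smallest falls among the alternatives. None of these genes was called in any alternative. In the authors' deposited table Ccl6 has a q-value of 0.000995 and Ccl7 of 0.00178, so 3 of the 7 members are below 0.05 there, with Ccl9 at 0.163 and Ccl12 at 0.443. That table calls 17.8% of the 13154 tested genes for which it completed a test.

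Ccl3 stood the other way, at 4.50, 8.25 and 4.17 FPKM after resection with vagotomy against 2.53 to 3.71 FPKM after resection alone. Its 3 libraries all lay above resection, and the log2 difference was 0.60 (95% interval -0.036 to 1.23, limma adjusted p = 0.230). Ccl4 was at 11.1, 7.75 and 13.6 FPKM, a log2 difference of 0.69 (95% interval 0.064 to 1.31, adjusted p = 0.170), with replicate 2 just below the highest resection library of 8.18 FPKM. The authors' deposited table gives them q-values of 0.232 and 0.172. Neither gene was called in any alternative, and their log2 differences remained positive, from 0.33 to 0.75 for Ccl3 and from 0.48 to 0.89 for Ccl4.

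Counted by overlap, 3 members (Ccl2, Ccl6 and Ccl7) had every vagotomy library below every resection library, as had 12.2% of all genes tested, and 1 (Ccl3) had every one above, as had 14.0%. The median log2 difference of the 7 was -0.82, beside 0.022 for all genes tested. The replicate that was highest among the vagotomy libraries differed between genes: replicate 2 for Ccl3, Ccl6, Ccl7 and Ccl12, replicate 1 for Ccl2 and Ccl9, and replicate 3 for Ccl4.

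**Figure D2:**
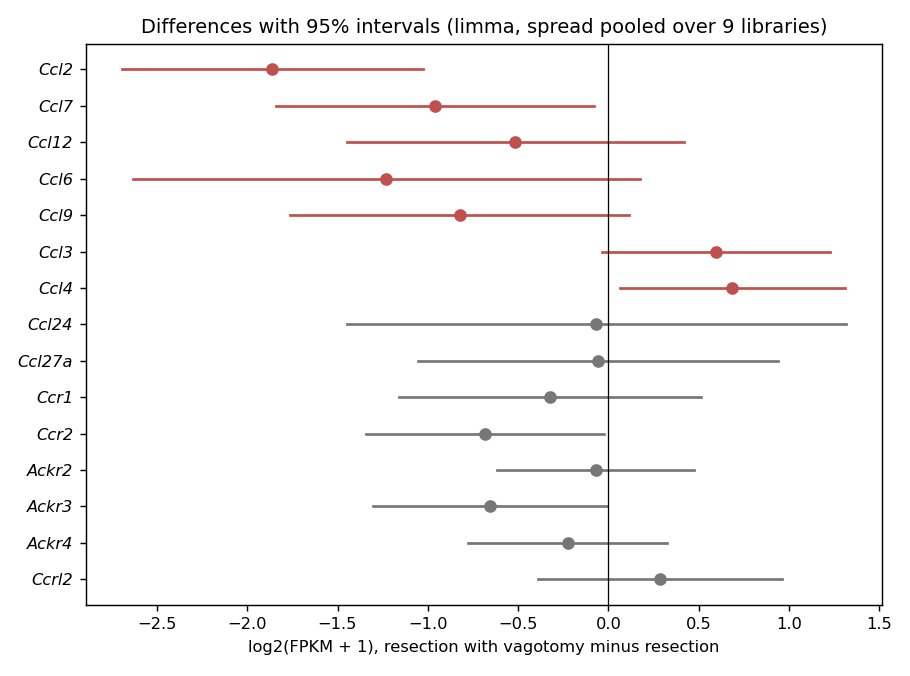
Difference in log2(FPKM + 1) between resection with vagotomy and resection alone, with 95% intervals from limma, for the 7 CC chemokines (red) and 8 other ligands and receptors (grey). The interval of Ccl2, -2.69 to -1.03, lies farthest from 0, Ccl3 and Ccl4 are the members to the right of 0, and the passing of an interval over 0 is not adjusted for the number of genes tested.

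Set against sham, the libraries with resection and vagotomy remained high for 6 members. The lowest of them exceeded the highest sham library for all but Ccl12, as it did for 19.7% of all genes tested, and this contrast too was known when the genes were chosen, so no test is given. The means were 55.3-fold above sham for Ccl3 and 29.4-fold for Ccl4, against 5.19-fold for Ccl7, 5.02-fold for Ccl6, 4.54-fold for Ccl9, 3.44-fold for Ccl2 and 1.26-fold for Ccl12. The order by fold thus differed from that by level, in which Ccl2 was first and Ccl3 sixth of 7. The sign for Ccl12 was not stable, at 0.22 on the log2 scale with all libraries, -0.032 without sham replicate 1 and -0.022 without vagotomy replicate 2. The 3 comparisons share libraries in pairs, so none of them is independent of the other two.

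FPKM is scaled to transcript length, so the members can be set side by side within a library. The 12 CC ligands of the matrix summed to 26.6, 28.6 and 53.4 FPKM in sham, to 280, 241 and 542 FPKM after resection, and to 149, 173 and 111 FPKM after resection with vagotomy. The 7 members made up 63.9 to 91.1% of that sum in sham, 96.0 to 98.1% after resection and 88.9 to 96.2% with vagotomy. The remainder held Ccl27a, a skin-homing chemokine, at 2.1 to 7.61 FPKM in every library. Ccl2 and Ccl7 together held 57.8 to 69.3% of the sum after resection and 44.5 to 53.2% with vagotomy, ranges that do not overlap. Their share in sham was 44.2 to 53.4%, close to the range with vagotomy.

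Ccl3 and Ccl4 together held 1.2 to 1.5% of the ligand sum in sham, 2.19 to 3.52% after resection and 9.25 to 16.0% with vagotomy. The 3 groups did not overlap, but a share also moves with the sum it is taken from. That sum was 241 to 542 FPKM after resection and 111 to 173 FPKM with vagotomy. The means of Ccl3 and Ccl4 were 1.72- and 1.71-fold higher with vagotomy than after resection, and neither difference passed the test. Ccl6 and Ccl9 held 25.4 to 37.3% after resection and 24.8 to 34.6% with vagotomy, overlapping ranges. The ratio of Ccl2 to Ccl4 within a library was 32.2 to 36.1 in sham, 22.6 to 27.4 after resection and 2.12 to 6.66 with vagotomy. Ccl2 exceeded its neighbour Ccl7 by 2.45 to 3.27 times after resection and by 1.38 to 1.93 times with vagotomy. In vagotomy replicate 3, Ccl6 at 33.5 FPKM was above Ccl2 at 28.9 FPKM, the 1 library of 9 in which Ccl2 was not the highest member. These ratios were picked out after their values were seen and are given without a test, since with 3 libraries a group an exact permutation p can be no smaller than 0.1.

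**Figure D3:**
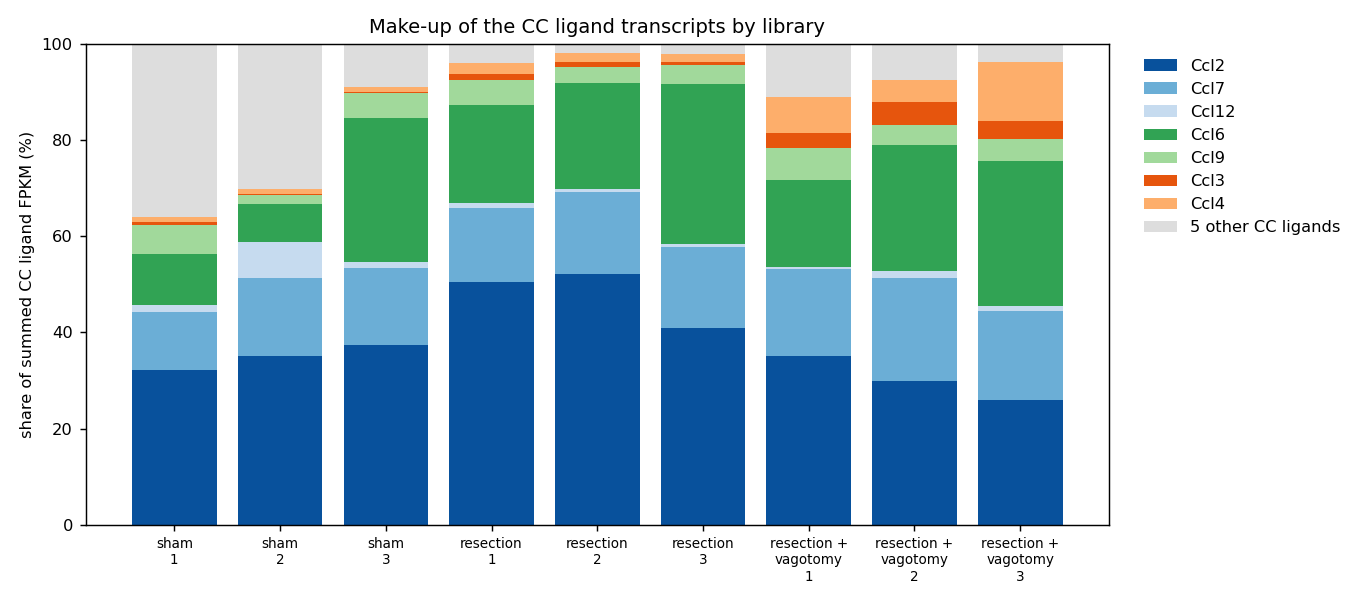
Share of the summed FPKM of the 12 detected CC ligands that each member held in each library, in percent; grey is the sum of the other 5. The orange parts, Ccl3 and Ccl4, hold 9.25 to 16.0% with vagotomy and at most 3.52% in the other libraries. The sum itself was lower in every vagotomy library than in any resection library.

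Beyond the 7, the CC system was tested as 9 genes, other ligands, receptors and the atypical receptors that take up or present chemokines without G protein signalling. By limma, 0 of 9 passed between resection and sham and 0 of 9 between vagotomy and resection, where 0.294% and 3.52% of all genes tested did. Between vagotomy and sham 1 of 9 (Ccr1) passed, where 10.1% did. At an unadjusted p under 0.05 the first 2 counts were 3 and 2 of 9, where 5.89% and 24.2% of all genes tested lay. The third held 1 of 2 other ligands, 2 of 3 CC receptors and 1 of 4 atypical receptors, where 30.1% of all genes tested lay. The receptors of the members were themselves measured at a few FPKM. Ccr2, the receptor of Ccl2, Ccl7 and Ccl12, was at 0.509, 1.44 and 2.20 FPKM in sham, 5.48, 6.79 and 6.62 FPKM after resection and 3.76, 2.87 and 4.05 FPKM with vagotomy. The 3 groups did not overlap and stood in the same order as those of Ccl2 and Ccl7, but no difference of Ccr2 passed (log2 1.68, adjusted p = 0.0547 for resection against sham; -0.68, 0.194 for vagotomy against resection; 0.99, 0.0595 for vagotomy against sham).

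Ccr1, the receptor of Ccl3, Ccl6 and Ccl9, was at 0.811, 1.64 and 4.04 FPKM in sham, 6.26, 8.25 and 10.8 FPKM after resection and 7.18, 7.87 and 4.59 FPKM with vagotomy. Its rise with vagotomy against sham was 1.36 on the log2 scale (SE 0.38, limma adjusted p = 0.0475). Leaving out resection replicate 1 kept that call and leaving out any other single library ended it, with adjusted p of 0.0452 to 0.166 over the 9 fits. Its difference of 1.68 between resection and sham, larger than the one that passed, had an adjusted p of 0.136. A further 8 CC receptors were not in the matrix and were at no more than 0.193 FPKM in any group of the authors' deposited tables.

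Of the atypical receptors, Ackr2, which removes inflammatory CC chemokines, was nearly level, with a log2 difference of 0.17 between resection and sham and -0.069 between vagotomy and resection. Ackr3 was at 9.51 to 14.6 FPKM after resection and 5.23 to 8.53 FPKM with vagotomy, a log2 difference of -0.66 that did not pass (limma adjusted p = 0.202). Ccl24, a ligand of eosinophils, was at 0.031 to 0.615 FPKM in sham, and varied from 0.909 to 4.65 FPKM after resection and from 0.117 to 5.91 FPKM with vagotomy, so that its groups overlapped with vagotomy. Its log2 difference between vagotomy and resection was -0.066, with an interval of -1.45 to 1.32 that leaves a wide range of differences possible.

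**Figure D4:**
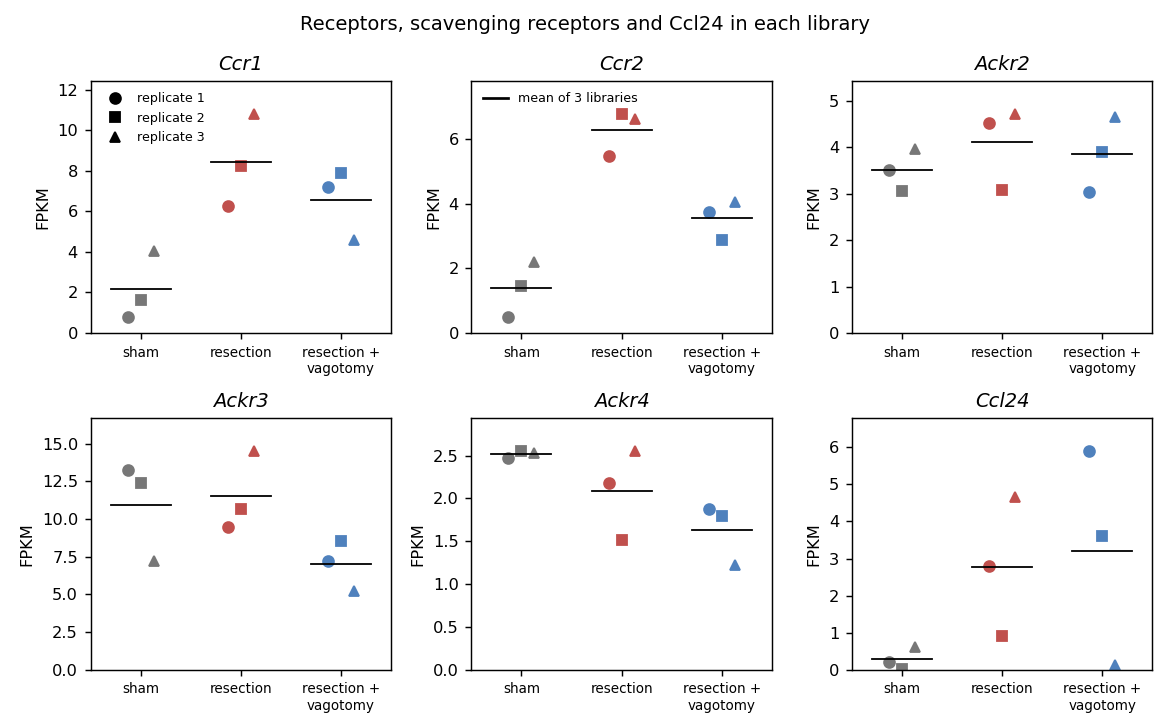
FPKM of 2 CC receptors, 3 atypical receptors and Ccl24 in the 9 libraries; symbols mark the replicate number, lines the mean of 3 libraries, and each vertical axis starts at 0. Ccr2 separates the 3 groups, and Ackr2 lies between 3.04 and 4.72 FPKM throughout.

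Downstream of the receptors, 0 of 23 signalling genes passed between resection and sham, 0 of 23 between vagotomy and resection, and 4 of 23 between vagotomy and sham, all higher. Of all genes tested, 0.294%, 3.52% and 10.1% passed. These were the G protein subunit Gng2, the leukocyte GTPase Rac2, the actin regulator Was and the Src-family kinase Fgr. Rac2 was at 0.801 to 1.09 FPKM in sham, 2.73 to 4.67 FPKM after resection and 3.95 to 4.65 FPKM with vagotomy (log2 1.45 against sham, limma adjusted p = 0.0119). The counts at an unadjusted p under 0.05 were 6, 2 and 10 of 23, beside 5.89%, 24.2% and 30.1% of all genes tested, so the second lies below the share of all genes. The median over the 23 genes was 0.45, 0.12 and 0.57 in the 3 comparisons. The count of 4 became 0 without sham replicate 2 or 3, 1 without vagotomy replicate 2, and 2 without sham replicate 1, resection replicate 3 or vagotomy replicate 1 or 3.

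Upstream, among 15 cytokines and transcription factors that induce CC ligand genes, 0 passed between resection and sham, 0 between vagotomy and resection, and 2 between vagotomy and sham, where 0.294%, 3.52% and 10.1% of all genes tested passed. These 2 were Nfkb2, an NF-kB subunit (log2 1.28, limma adjusted p = 0.0459), and Cebpb, a C/EBP factor (log2 2.54, adjusted p = 0.0432), and both were lost without sham replicate 2 or 3, resection replicate 3 or any of the 3 vagotomy replicates. The counts at an unadjusted p under 0.05 were 5, 1 and 5 of 15, again beside 5.89%, 24.2% and 30.1% of all genes, so the second was below that share and the third close to it. Il1b, a cytokine that induces Ccl2, was at 0.095 to 0.494 FPKM in sham and 2.43, 2.14 and 15.2 FPKM after resection. Its highest value was in resection replicate 3, the resection library in which all 7 members were highest. With vagotomy Il1b was at 2.04 to 2.76 FPKM, and its log2 difference of -0.70 from resection did not pass (adjusted p = 0.450).

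Among 10 genes listed as restraining CC ligand transcripts or proteins, of which Elavl1 is better known for stabilising transcripts, 0 passed between resection and sham, 1 between vagotomy and resection (Khsrp) and 3 between vagotomy and sham (Khsrp, Nfkbia and Dusp1). Of all genes tested, 0.294%, 3.52% and 10.1% passed. Taken at an unadjusted p under 0.05, the counts were 4, 3 and 6 of 10, beside 5.89%, 24.2% and 30.1% of all genes tested. Khsrp encodes an RNA-binding protein that promotes decay of transcripts with AU-rich elements. It was at 10.9 to 19.5 FPKM in sham, 9.46 to 16.2 FPKM after resection and 60.1, 35.1 and 52.2 FPKM with vagotomy, with no overlap (log2 1.77 against resection, SE 0.32, limma adjusted p = 0.0262). That call was lost without sham replicate 2 or 3, resection replicate 2, or vagotomy replicate 1 or 3 (adjusted p 0.0300 to 0.110 over the 9 fits). Its part in the level of any member was not tested. Nfkbia, the inhibitor of NF-kB, was at 7.55 to 9.31 FPKM in sham and 18.4 to 27.1 FPKM with vagotomy (log2 1.36, adjusted p = 0.0119), a rise lost without sham replicate 2 or 3. Dusp1, a phosphatase that limits MAP kinase signalling, was lower with vagotomy than in sham (log2 -1.09, adjusted p = 0.0435), a call that 2 of 9 fits with a library left out kept (without resection replicate 1 or 3). Of 8 surface proteoglycans that hold chemokines, Cd44 alone passed, between vagotomy and sham (log2 1.39, adjusted p = 0.0350), and its call was lost when any 1 of the sham or vagotomy libraries was left out. At an unadjusted p under 0.05 the counts were 2, 1 and 2 of 8.

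Some markers of the cells that make and follow these chemokines differed between the groups too, and their part in the members' values was not tested. Over 11 monocyte and macrophage markers, the summed level was 37.7 to 61.3 FPKM in sham, 157 to 289 FPKM after resection and 218 to 238 FPKM with vagotomy. The log2 difference between resection and sham was above 0 for 10 of 11. By limma, 3 of 11 (Itgam, Cd14 and Lyz2) passed there, all higher, and 0 of 11 passed between vagotomy and resection. Between vagotomy and sham 6 passed, all higher (those 3, Csf1r, Emr1 and Fcgr1). Of all genes tested, 0.294%, 3.52% and 10.1% passed. At an unadjusted p under 0.05 the counts were 7, 0 and 9 of 11, beside 5.89%, 24.2% and 30.1% of all genes tested. Each of the 3 resection calls was lost in at least 4 of the 9 fits with a library left out, and the count was 0 without sham replicate 1 or 2 or resection replicate 1 or 3, and 1 without vagotomy replicate 1 or 2. The count of 6 was 1 and 3 without sham replicates 2 and 3.

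Over 9 neutrophil markers the summed level was 19.6 to 44.9, 213 to 304 and 117 to 336 FPKM in the 3 groups, with 7 of them tested. All 7 had a log2 difference above 0 between resection and sham, but S100a8 alone passed, where 0.294% of all genes tested did. S100a8 was also the only one past the threshold between vagotomy and resection, where it was lower and 3.52% of all genes passed. At an unadjusted p under 0.05 the counts were 6, 3 and 6 of 7, beside 5.89%, 24.2% and 30.1% of all genes tested. Between vagotomy and sham 4 of 7 passed by limma, all higher, where 10.1% of all genes tested passed. The 4 were S100a9, the granulocyte growth factor receptor gene Csf3r, Retnlg and the metalloproteinase gene Mmp9. The call of S100a9 held whichever library was left out, and the other 3 were lost without sham replicate 2 or 3. Between vagotomy and resection, 4 of the 7 had a log2 difference above 0. Retnlg and Mmp9 stood at 1.58 and 0.34 and Csf3r and Cxcr2 at -0.12 and -0.45, none past the threshold. The limma adjusted p was 0.135, 0.679, 0.870 and 0.494 in that order, and 0.0462 for Retnlg with the replicate block.

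Over 6 resident macrophage markers the sum was 17.0 to 23.0, 33.8 to 43.1 and 25.0 to 30.1 FPKM, and 1 of the 5 tested passed. This was F13a1, the coagulation factor XIII A subunit gene, at 4.74, 7.29 and 8.50 FPKM in sham, 24.02, 24.5 and 20.9 FPKM after resection and 8.80, 13.2 and 13.8 FPKM with vagotomy. It rose between resection and sham (log2 1.65, limma adjusted p = 0.0382), a call that of the 9 fits with a library left out only the one without vagotomy replicate 1 kept. Its log2 difference of -0.92 between vagotomy and resection did not pass (adjusted p = 0.0792; 0.0442 with the replicate block). Of the other resident markers, Mrc1, Lyve1, Folr2 and Cbr2 stood at log2 differences of 0.12, -0.065, -0.085 and 0.47 between resection and sham. Over 4 platelet markers the sum was 4.65 to 6.94, 17.0 to 50.4 and 11.8 to 20.8 FPKM, and over 3 dendritic cell markers 3.07 to 4.23, 10.1 to 14.1 and 4.62 to 9.40 FPKM. By limma 0 of 4 and 0 of 3 passed in each comparison, where 0.294%, 3.52% and 10.1% of all genes tested passed. At an unadjusted p under 0.05 the counts were 3, 1 and 2 of 4 and 2, 0 and 1 of 3. They were 1, 1 and 2 of 5 for the resident markers, beside 5.89%, 24.2% and 30.1% of all genes tested. Of the T and natural killer cell list 0 of 7 genes, and of the B cell list 0 of 4, were in the matrix. The main test called 0 of 6 fibroblast, 0 of 5 endothelial and 0 of 5 epicardial and mesothelial markers in each comparison. Unadjusted p was under 0.05 for 0, 2 and 2 of the fibroblast and 0, 0 and 2 of the endothelial markers. For the epicardial list these counts were 0, 1 and 1. Wt1 of that list was lower with vagotomy than after resection but did not pass (limma adjusted p = 0.0553, and 0.0354 with the replicate block).

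The genes most like each member were taken as the 3 with the smallest root mean square distance from it in log2(FPKM + 1), each gene centred on its own mean over the 9 libraries, among 11654 named genes. These distances describe 9 libraries that share the same 3 groups, and carry no test. Ccl2 was nearest to Ccl7 (0.41), then to Gp49a, an immunoglobulin-like receptor of myeloid cells (0.56), and S100a8, a subunit of the neutrophil protein calprotectin (0.56). S100a8 was at 203, 178 and 114 FPKM after resection and 35.7, 60.4 and 32.3 FPKM with vagotomy, and fell between these groups (log2 -1.94, limma adjusted p = 0.0344), a call lost without resection replicate 1 or 2, vagotomy replicate 1 or 3, or sham replicate 2 or 3. S100a9, the gene of the other calprotectin subunit, stood the other way, at 57.8, 23.0 and 55.5 FPKM after resection and 50.8, 157 and 213.5 FPKM with vagotomy (log2 1.49, adjusted p = 0.119). Ccl7 was nearest to Plek (0.37), a platelet and leukocyte protein kinase C substrate, Gp49a (0.38) and Ccl2 (0.41). Ccl6 was nearest to Ccl7 (0.52), Ccl2 (0.63) and Clu, which encodes clusterin (0.70).

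Ccl3 and Ccl4 had other neighbours. Ccl3 was nearest to the macrophage scavenger receptor gene Msr1 (0.32), the phagocyte glycoprotein gene Gpnmb (0.33) and the complement receptor gene C5ar1 (0.36). Ccl4 was nearest to the lysosomal protease gene Ctss (0.29), C5ar1 (0.34) and Gpnmb (0.36), so the pair shared 2 of their 3 nearest genes. Ctss was at 21.5 to 30.3 FPKM after resection and 53.1 to 53.8 FPKM with vagotomy. By distance from Ccl3, Ccl4 held rank 11 and Ccl2 rank 4280. When each gene was also divided by its own SD, which compares shape alone, these ranks were 17 and 782. Ranks depend on the gene they start from. From Ccl2, Ccl3 and Ccl4 held ranks 113 and 146 by distance, and 287 and 293 by shape alone.

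Ccl9 was nearest to the metalloproteinase inhibitor gene Timp1 (0.35), the cytokine receptor gene Csf2rb (0.41) and the lysozyme gene Lyz2 (0.42). The other members were far from Ccl12 by this distance, at rank 11000 or a later rank of 11654, but by shape alone they held ranks from 251 (Ccl7) to 1637 (Ccl4). Its nearest genes by distance, Senp3, Sra1 and Chic2, were each at a distance of 0.30. By shape alone, the 3 nearest genes kept 2 in common for Ccl7 and Ccl9, 1 for Ccl2, Ccl3, Ccl6 and Ccl12, and 0 for Ccl4.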

How the data were processed

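RNA was sequenced from the ventricular apex of newborn mice in 3 groups of 3 libraries. Per the submitters' processing notes, TopHat2 2.0.9, Cufflinks 2.1.1 and Cuffdiff 2.1.1 were used with GRCm38. The authors deposited a matrix of FPKM with a pseudocount of 1 added, for 14479 genes, and tables of group FPKM with p-values and q-values, which the authors computed with Cuffdiff. Library depth is not given in the sources used here.

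The pseudocount was subtracted, the 13249 genes whose mean over all libraries reached 1 FPKM were kept, and log2(FPKM + 1) was tested with limma 3.58.1 (R 4.3.3), 1 mean per group with a mean-variance trend, two-sided, with Benjamini-Hochberg adjustment over all genes tested and a threshold of 0.05. A fold change on this scale understates the change of low genes. The code was tested on simulated data. The chemokines, gene lists, tests and alternatives were chosen with earlier results of these data known. Named genes are the 7 chemokines with every library's value, for each list the genes past the threshold and up to 4 others with the smallest p, and the 3 genes nearest in pattern to each chemokine. Ccl11, Ccl8, Ccl1, Gm17268 and E230016K23Rik are named outside that rule, with their values known. The values of 1 tested gene of the CC system are not reported here, although counts include it.

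The titles number the replicates 1 to 3 in each group, nothing in the labels says what a number marks, and the library codes of the third replicates carry numbers that differ between groups. Between resection with vagotomy and resection, deviations from the group means correlated at 0.199, 0.141 and 0.117 for same-numbered libraries. On these correlations alone the title numbers were tried as pairs in an alternative fit. The main test has no pairing. With the replicate number as a block, 1277 genes were called in that comparison against 466 without it, and Ccl2 remained the 1 chemokine called (adjusted p = 0.0286).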

Additional observations from a re-analysis of the deposited data

How the results depend on the processing

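With 3 libraries a group and no read counts, counting error is unknown, values near 0 FPKM are imprecise, and calls near the threshold move with single libraries. The count of 1 chemokine called between vagotomy and resection, Ccl2, became 0 with only the 6 compared libraries, and was 0 to 1 when 1 library was left out. The 1 other CC system gene called between vagotomy and sham, Ccr1, became 0 with a pseudocount of 5, with no filter on low values, with a mean of at least 5 FPKM, with upper-quartile or quantile scaling, with the 6 compared libraries alone and with no mean-variance trend, and was 0 to 1 with 1 library left out (without vagotomy replicate 3 the 1 gene was Ccl24). With the replicate block it was 3. The cause of these changes was not tested. The log2 difference of Ccl12 between vagotomy and sham was 0.22, and -0.032 to 0.57 with 1 library left out, below 0 without sham replicate 1 and without vagotomy replicate 2 (-0.022). Of 372 values of the chemokines under alternatives, 349 stayed within the replicate spread or on their side of the threshold, 13 moved further, 8 lost a call and 2 reversed. Ccl3 and Ccl12 have no value at a mean of at least 5 FPKM.

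Over all genes, 39, 466 and 1334 were called for resection against sham, vagotomy against resection and vagotomy against sham. The counts were 13, 29 and 1474 with the 6 compared libraries alone, 66 and 23 for the first with pseudocounts of 0.1 and 5, and 11 to 59, 42 to 591 and 100 to 1701 with 1 library left out. With the replicate block they were 55, 1277 and 2413. Same-numbered libraries correlated at 0.498, 0.197 and 0.013 between resection and sham, where unlike-numbered libraries reached 0.335. Between vagotomy and sham same-numbered libraries correlated at 0.186, 0.170 and -0.019. Whether same-numbered libraries are pairs is not known in any comparison. The block changed no call of the 7 chemokines between vagotomy and resection, and the counts of the other CC system genes stayed at 0 for the first 2 comparisons.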
